A study of Mus musculus with 6 samples.

Results

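The genes described here are 9 genes of the enzyme-secreting acinar cells of the exocrine pancreas, as measured in islets of 2 obese mouse strains. They were chosen by name and found among the probes of the scanner files through the file's gene name, an older synonym or its RefSeq identifier. All 9 had at least 1 probe, 11 probes in all, among 16421 genes tested. They are the lipase genes Pnlip, Pnliprp1, Pnliprp2 and Cel, the colipase gene Clps, the granule protein genes Zg16 and Sycn, and the transcription factor genes Ptf1a and Bhlha15. Zg16 appears in the files under 1810010M01Rik and Bhlha15 as BhlhA15.

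The study compared pancreatic islets of male mice of the diabetes-prone strain NZO/HiBomDife (NZO, for New Zealand Obese) with those of the diabetes-resistant strain C57BL/6.V-Lepob/ob (B6-ob/ob), males too. B6-ob/ob mice lack functional leptin. Both strains were fed a fat-rich diet lacking carbohydrate until they were 18 weeks old, and islets were taken 48 h after carbohydrate was put back. There were 3 arrays per strain, numbered 10, 11 and 12 for NZO and 4, 5 and 6 for B6-ob/ob. Whether the RNA on an array came from 1 mouse or several is not given in the labels. The p-values therefore reflect only how these samples scatter, and that scatter may be technical. All arrays were from animals after the diet change, so values compare the strains and not the response to carbohydrate.

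Acinar cells make the digestive enzymes and store them in zymogen granules. Pancreatic lipase splits dietary triglycerides with the help of colipase, which holds it at the surface of the fat droplet in the presence of bile salts. Carboxyl ester lipase, the product of Cel, also splits cholesterol esters. Ptf1a is the DNA-binding core of PTF1, a complex with RBPJL or RBPJ that drives the genes of digestive enzymes. Bhlha15, also called Mist1, is a helix-loop-helix factor of secretory cells that governs granule maturation and the secretory apparatus. Islets are endocrine tissue, and islets isolated from a pancreas can carry attached exocrine tissue.

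The probes are 60 bases long. Those of the sister genes Pnliprp1 and Pnliprp2, and that of Ptf1a, are shown because the comparison rests on telling these transcripts apart. They are printed from 5′ to 3′ as the scanner files give them, with no part in capitals.
Pnliprp1: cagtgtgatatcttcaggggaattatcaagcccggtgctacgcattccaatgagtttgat
Pnliprp2: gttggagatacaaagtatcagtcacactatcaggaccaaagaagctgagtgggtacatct
Ptf1a: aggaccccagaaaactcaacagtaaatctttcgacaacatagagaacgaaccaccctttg
The longest run of bases shared between the probes of Pnliprp1 and Pnliprp2 is 5 bases. Neither probe was compared with the transcript of the sister gene, so whether it also binds that transcript was not examined. On mm9, the build of the files, these probes of Pnliprp1 and Pnliprp2 lie on chromosome 19, at 58815028 to 58815621 and 58848560 to 58848619. The 60 bases of the Pnliprp1 probe span 594 genome positions. The Ptf1a probe lies on chromosome 2 at 19368720 to 19368779. Whether a probe lies in coding or untranslated sequence is not given in the files.

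The 7 genes of secreted proteins and Ptf1a were higher in NZO, while Bhlha15 did not pass the test. Of the 9 genes 8 were called higher and none lower at an adjusted p under 0.05 (limma, Benjamini-Hochberg over 16421 genes), where 13.2% of all genes were called higher and 9.01% lower. In the same 8 genes all NZO arrays lay above all B6-ob/ob arrays, as in 20.7% of all genes, and in none did they all lie below, as in 20.4%. Differences of the 7 secreted genes ran from 1.88 to 2.92 on the log2 scale, or 3.68-fold to 7.58-fold, against a median of -0.03 over all genes. With slide as a fixed block 4 of the 9 genes passed, where 1512 of all 16421 genes were called higher. Of the 9, 5 passed without NZO replicate 11 and 5 without NZO replicate 12, beside 1397 and 1805 of all genes. Without B6-ob/ob replicate 5, 3 passed, beside 1298 of all genes. Pnliprp2, Zg16 and Ptf1a passed in each of these, though the Ptf1a probe was well above background on only 1 of 3 B6-ob/ob arrays.

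**Figure D1:**
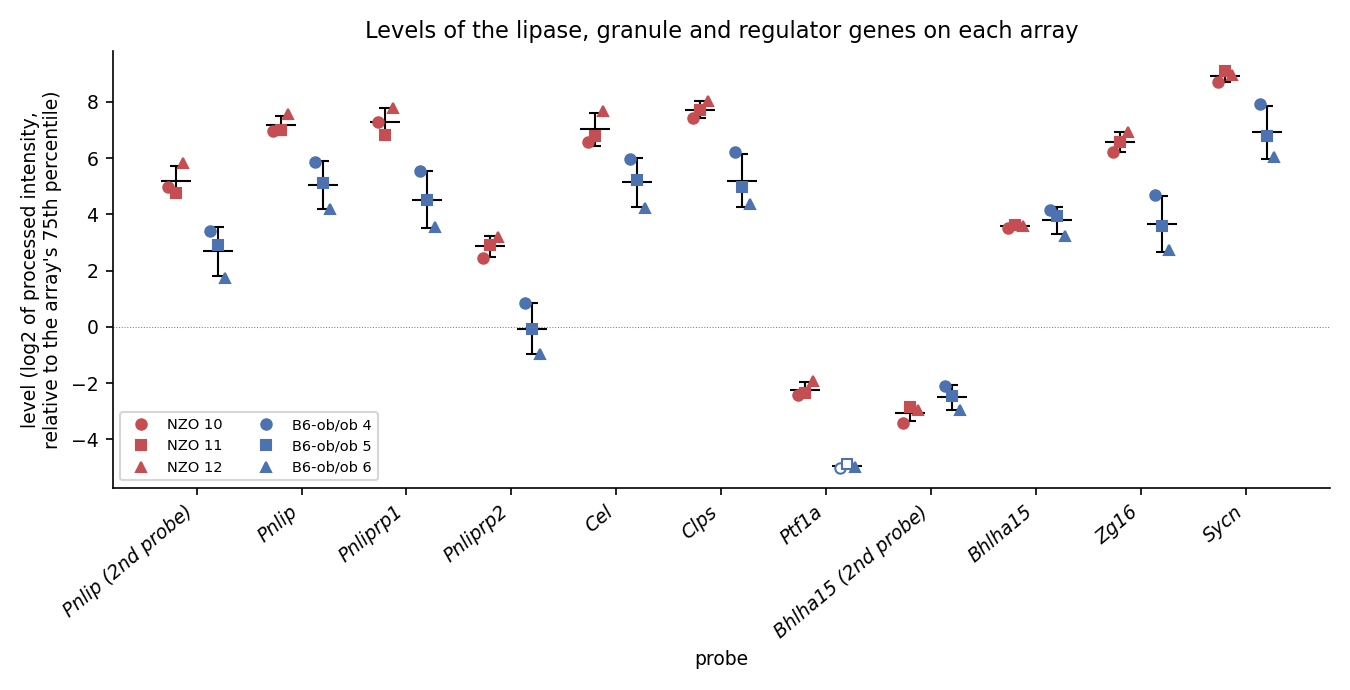
Level of each probe on each array, as log2 of the processed intensity relative to the array's 75th percentile, with NZO in red and B6-ob/ob in blue, the strain mean as a bar and 1 SD as whiskers. Open symbols were not well above background, and the 2nd probe is the dimmer of 2 probes of a gene. The NZO arrays lie above the B6-ob/ob arrays at every probe but those of Bhlha15.

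Levels are given as log2 of the processed spot intensity minus the array's 75th percentile over all probes, so that 1 unit is a doubling. Pnlip, the main triglyceride lipase of pancreatic juice, stood at 6.96, 6.99 and 7.56 on NZO replicates 10, 11 and 12. On B6-ob/ob replicates 4, 5 and 6 it stood at 5.86, 5.10 and 4.18. The NZO arrays lay within 0.60 of each other and the B6-ob/ob arrays within 1.67, and the strains did not overlap. In intensity units of the scanner these were 53957, 43624 and 77198 in NZO against 21364, 15565 and 7993 in B6-ob/ob. Pnlip was 4.36-fold higher in NZO (95% interval 2.12 to 8.96), which is 2.12 in log2 units (standard error 0.43, limma adjusted p = 0.0168). The call ended with slide as a fixed block, where the adjusted p was 0.0667, and likewise when replicate 11 or 12 of NZO or replicate 5 of B6-ob/ob was left out (0.0524, 0.0564 and 0.0622). Its other probe, on chromosome 19 at 58748342 to 58748401 and annotated to a cDNA clone, stood at 4.96, 4.75 and 5.81 in NZO and at 3.42, 2.92 and 1.73 in B6-ob/ob. That probe differed by 2.48 (limma adjusted p = 0.0151 over 24632 probes), so both probes gave the same direction.

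Pnliprp1 encodes a lipase relative with little known activity on triglycerides. It stood at 7.29, 6.82 and 7.77 in NZO and at 5.54, 4.50 and 3.54 in B6-ob/ob. The highest B6-ob/ob array, replicate 4, was 1.28 below the lowest NZO array, replicate 11. The difference was 2.77 with a standard error of 0.52, or 6.81-fold (95% interval 2.84 to 16.4, limma adjusted p = 0.0134). The call ended when replicate 5 of B6-ob/ob was left out, with an adjusted p of 0.0546.

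Pnliprp2, a lipase relative that also splits galactolipids and phospholipids, stood at 2.46, 2.93 and 3.19 in NZO and at 0.85, -0.06 and -0.96 in B6-ob/ob. The strains did not overlap, and the spread was 0.37 in NZO and 0.91 in B6-ob/ob (SD, n = 3). Pnliprp2 was 7.57-fold higher in NZO (95% interval 3.48 to 16.5), with a difference of 2.92 and a standard error of 0.46 (limma adjusted p = 0.00722). It kept its call in 15 of 15 alternatives on the scanner values.

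Cel stood at 6.59, 6.80 and 7.69 in NZO and at 5.98, 5.23 and 4.24 in B6-ob/ob. NZO replicate 12 was the highest array and B6-ob/ob replicate 6 the lowest, and NZO replicate 10 and B6-ob/ob replicate 4 were 0.61 apart. The difference was 1.88 with a standard error of 0.50, or 3.68-fold (95% interval 1.60 to 8.46, limma adjusted p = 0.0415). This was the smallest difference among the 7 secreted genes, and the call held in 8 of 15 alternatives. It was lost, among others, with slide as a fixed block (1.44, adjusted p = 0.134) and when replicate 6 of B6-ob/ob was left out (1.42, adjusted p = 0.0623).

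Clps, the colipase gene, stood at 7.43, 7.70 and 8.03 in NZO and at 6.23, 4.99 and 4.37 in B6-ob/ob. All NZO arrays lay above all B6-ob/ob arrays, by at least 1.20. The difference was 2.52 with a standard error of 0.47, or 5.75-fold (95% interval 2.62 to 12.6, limma adjusted p = 0.0127). It missed the threshold with slide as a fixed block (adjusted p = 0.0557) and when replicate 5 of B6-ob/ob was left out (0.0555). The intervals of the 5 lipase and colipase genes overlap, from the lowest, Cel, to the highest, Pnliprp2. Their probes lie on chromosome 19 for the 3 pancreatic lipase relatives, chromosome 2 at 28411609 to 28411668 for Cel and chromosome 17 at 28695242 to 28695301 for Clps.

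Among the granule proteins, Zg16 encodes a lectin of the zymogen granule membrane. It stood at 6.23, 6.59 and 6.95 in NZO and at 4.69, 3.58 and 2.72 in B6-ob/ob, by a probe on chromosome 7 at 134193837 to 134193896. Every NZO array was at least 1.54 above every B6-ob/ob array. The difference was 2.92 with a standard error of 0.49, or 7.58-fold (95% interval 3.30 to 17.4, limma adjusted p = 0.00909). Sycn encodes syncollin, a protein of the inner face of the granule membrane. It stood at 8.71, 9.09 and 8.96 in NZO and at 7.92, 6.80 and 6.04 in B6-ob/ob, by a probe on chromosome 7 at 29327157 to 29327216. Its difference was 2.00 with a standard error of 0.46, and the 95% interval of the fold ran from 1.85 to 8.65 (limma adjusted p = 0.0261). Sycn had the tightest NZO arrays of the 7 secreted genes, with an SD of 0.20, and its call ended with slide as a fixed block (1.87, adjusted p = 0.0953). It also ended without each NZO array in turn and without replicate 5 of B6-ob/ob, at adjusted p from 0.0643 to 0.0931.

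Ptf1a, the acinar-specific factor of the PTF1 complex, was dim on every array and higher in NZO. It stood at -2.42, -2.35 and -1.93 in NZO and at -5.01, -4.88 and -4.97 in B6-ob/ob. In scanner units these were 80.7, 67.3 and 108 in NZO, against values from 11.5 to 15.4 in B6-ob/ob. The B6-ob/ob arrays lay within 0.12 of each other, and only replicate 6 of these 3 was called well above background. The difference was 2.72 with a standard error of 0.16, or 6.59-fold (limma adjusted p = 0.000263). The size of this difference depended on the treatment of background, as it was 1.01 after normexp correction (adjusted p = 0.00179). Ptf1a passed in 14 of 14 alternatives that kept its probe, and requiring all 6 arrays above background removed it. Each of the 14 used B6-ob/ob readings not well above background. The standard error and adjusted p of Ptf1a thus rest on a spread that was not measured in B6-ob/ob.

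Bhlha15 was bright in both strains. Its brighter probe, on chromosome 5 at 144955175 to 144955234, stood at 3.50, 3.61 and 3.60 in NZO and at 4.17, 3.95 and 3.24 in B6-ob/ob. In scanner units these were 4902, 4186 and 4983 against 6628, 7027 and 4168. The NZO arrays lay within 0.11 of each other and between the B6-ob/ob arrays, of which replicates 4 and 5 were above them and replicate 6 below. The difference was -0.22 with a standard error of 0.25 and a 95% interval from -0.81 to 0.38 (limma adjusted p = 0.588). Expressed as a fold, NZO over B6-ob/ob, the interval ran from 0.570 to 1.30. Its dimmer probe, at 144952447 to 144952506, stood at -3.40, -2.84 and -2.95 in NZO and at -2.09, -2.47 and -2.95 in B6-ob/ob. That probe differed by -0.56 (95% interval -1.19 to 0.07, limma adjusted p = 0.186 over probes), and its strains overlapped as well. Bhlha15 passed in 0 of 15 alternatives on the scanner values, in which its difference ran from -0.49 to -0.03.

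**Figure D2:**
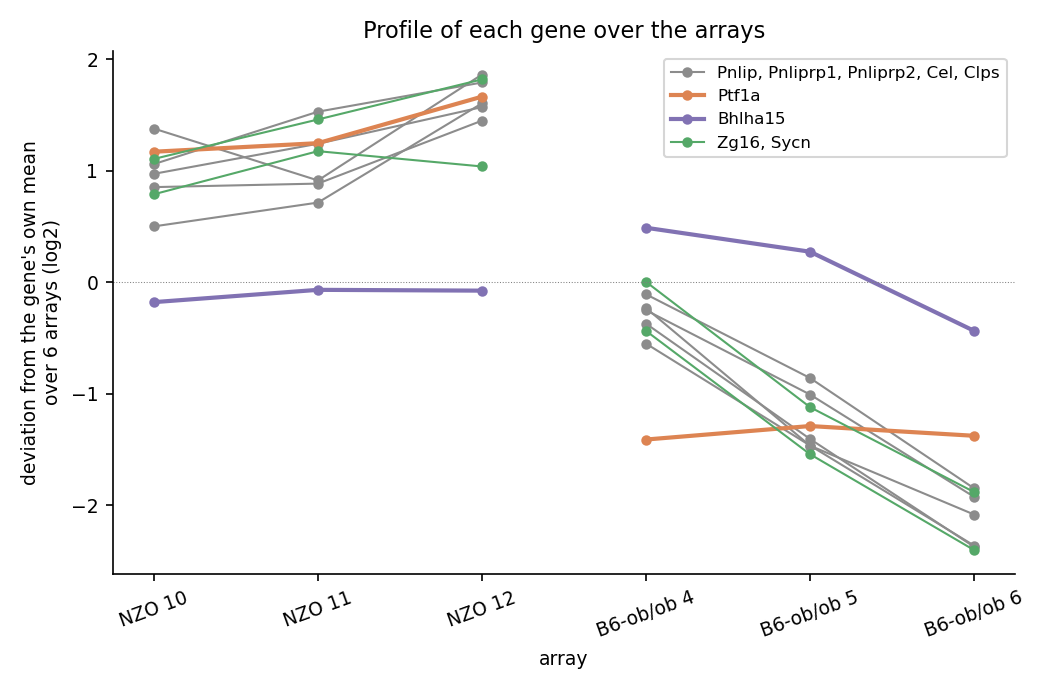
Deviation of each gene from its own mean over the 6 arrays, in log2 units, for the lipase and colipase genes (grey), Zg16 and Sycn (green), Ptf1a (orange) and Bhlha15 (purple), with lines joining the values of a gene within a strain. All 7 secreted genes are highest on replicate 4 and lowest on replicate 6 of the B6-ob/ob arrays. The Ptf1a probe was not well above background on replicates 4 and 5, so its spread there was not measured.

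The lipases were set against the 2 factors through their strain differences, since levels of different probes are not comparable. Against Bhlha15, the difference of every secreted gene was greater, from 2.10 more for Cel to 3.14 more for Zg16. For each of the 7 the deviation from Bhlha15 on all NZO arrays lay above that on all B6-ob/ob arrays. How many of all genes separate in this way was not counted. For Pnlip it was 1.03, 0.95 and 1.53 in NZO and -0.74, -1.28 and -1.49 in B6-ob/ob, which makes 2.34 between the strains (SD 0.31 in NZO and 0.39 in B6-ob/ob). Against Ptf1a, whose probe was not well above background on B6-ob/ob replicates 4 and 5, the order depended on the background correction. With processed intensities the secreted genes ran from 0.84 less for Cel to 0.20 more for Zg16 and for Pnliprp2. After normexp correction Ptf1a differed by 1.01 and each of the 7 by more, from 1.80 for Cel to 2.87 for Zg16. The median lipase difference was 1.27 above the mean of the 2 factors, a mean of 1 gene that passed and 1 that did not. It was 2.08 after normexp correction. These comparisons are descriptions and carry no test.

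The secreted genes also varied together within strains. In 7 of 7 the B6-ob/ob arrays ran from replicate 4, the highest, through 5 to 6, as in 33.6% of all genes, and replicate 4 exceeded replicate 6 by 1.67 to 2.00. For Bhlha15 the same gap was 0.92, and for Ptf1a none is given, since its probe was not well above background on replicate 4. NZO replicate 12 was the highest NZO array in 6 of 7, against 34.8% of all genes, with Sycn the exception. The SD among B6-ob/ob arrays ran from 0.84 to 1.00 over the 7 genes, and 4.79% of all genes had a larger one than Pnlip. Among NZO arrays it ran from 0.20 to 0.59. Slide 2 holds NZO replicate 10 and B6-ob/ob replicate 4, slide 3 holds NZO replicate 11 and B6-ob/ob replicates 5 and 6, and slide 1 holds NZO replicate 12 alone. Within slide 2 the secreted genes were higher in NZO by 0.61 to 1.75 and within slide 3 by 2.07 to 3.44. Bhlha15 differed by -0.67 within slide 2 and by 0.01 within slide 3. For Ptf1a no difference within slides is given, since its probe was not well above background on B6-ob/ob replicates 4 and 5. In bulk tissue, fewer cells of a type and less RNA per cell cannot be told apart.

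Profiles were then compared over the 6 arrays by the root mean square deviation between centred log2 values. Among the 9 genes the closest pair was Pnliprp2 and Zg16, at 0.07, followed by Pnlip and Cel at 0.19. Bhlha15 lay between 1.12 and 1.61 from each of the other 8. Of 13026 named genes above background on all arrays, the nearest to Pnlip were the procarboxypeptidase genes Cpb1 at 0.09 and Cpa1 at 0.12, then Gdf10 at 0.16, Chst8 at 0.18 and Ptn at 0.19. The nearest to Bhlha15 were Snrnp25 and Tmed9 at 0.06, Brcc3 at 0.06, Nxt1 at 0.07 and Herpud1 at 0.07. Tmed9 is a cargo receptor of the early secretory pathway and Herpud1 a component of protein degradation at the endoplasmic reticulum. Whether the genes nearest to Bhlha15 share a role was not tested. Small deviations are easier to reach for a gene that varies little, as Bhlha15 does.

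**Figure D3:**
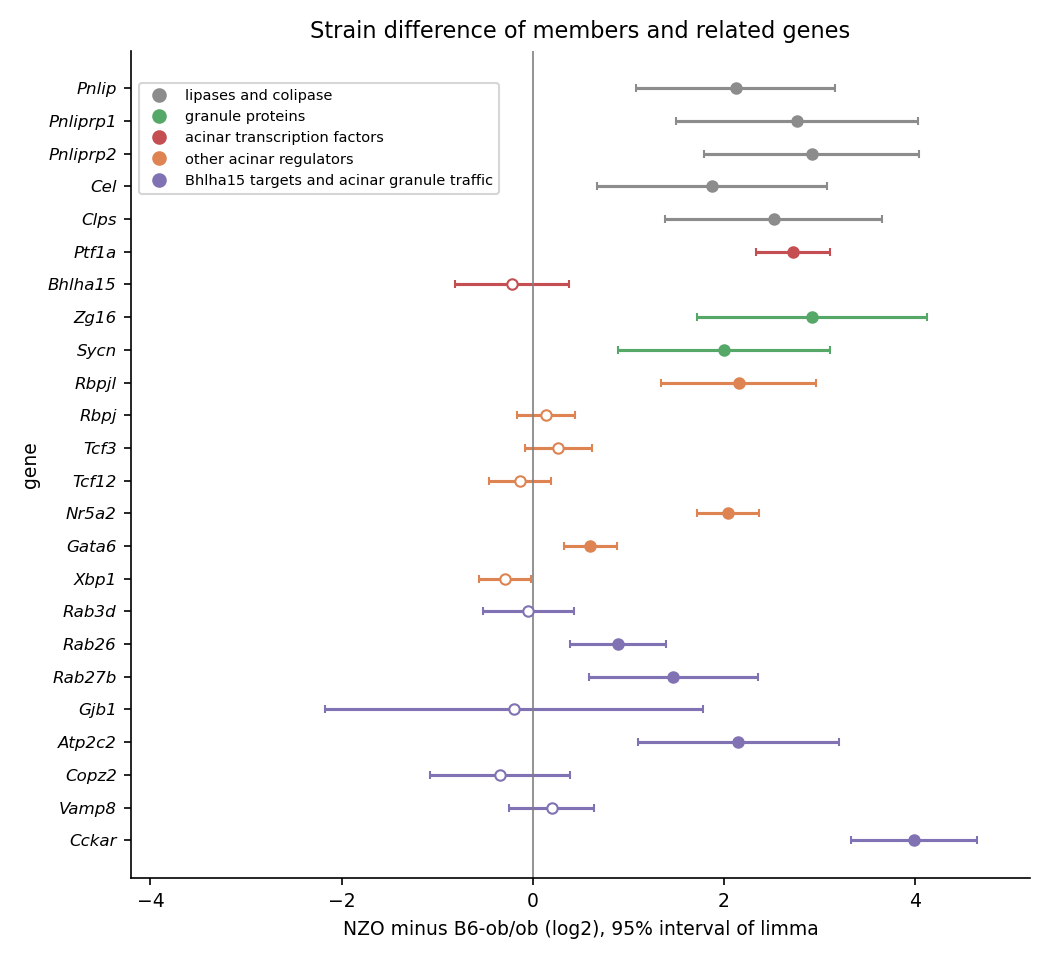
Strain difference, NZO minus B6-ob/ob on the log2 scale, of the 9 genes and of 15 related genes, with 95% intervals from limma. Filled points passed at an adjusted p under 0.05, as Rbpjl and Nr5a2 did and Bhlha15 and Xbp1 did not.

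Other regulators of acinar cells were split in the same comparison. Of 7 tested members of a list of 8, 3 were higher in NZO and none lower, where 13.2% of all genes were called higher. Their median difference was 0.27, and Gata4 was above background on too few arrays. The median was 0.17 without B6-ob/ob replicate 4 or with the mean of a gene's probes, and 0.44 with no filter on dim probes, which adds Gata4. Rbpjl, the acinar partner of Ptf1a, stood at -0.33, 0.05 and 0.32 in NZO and at -1.46, -2.35 and -2.62 in B6-ob/ob, a difference of 2.15 (limma adjusted p = 0.00664). Nr5a2, a nuclear receptor that sustains acinar gene expression, was higher by 2.04 (limma adjusted p = 0.000364) and Gata6 by 0.60 (limma adjusted p = 0.014). For both, the strains did not overlap. The other 4 did not pass the test. Rbpj, the Notch pathway factor that Rbpjl replaces in PTF1, differed by 0.13, and the helix-loop-helix partners Tcf3 and Tcf12 by 0.27 and -0.13. Xbp1, the factor of the unfolded protein response that governs secretory capacity, differed by -0.29 (limma adjusted p = 0.122), with all NZO arrays below all B6-ob/ob arrays.

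Genes known as Bhlha15 targets or for granule traffic did not move as 1 group. Of 8 tested, 4 were higher in NZO, where 13.2% of all genes were called higher, and none was lower. The median difference of the 8 was 0.55. Rab26, a small GTPase of secretory granules, was higher by 0.89 (limma adjusted p = 0.0278). Cckar, the receptor through which cholecystokinin triggers acinar secretion, was higher by 3.99, although on the B6-ob/ob side a single array was above background. Rab27b at 1.47 and the calcium pump gene Atp2c2 at 2.15 were above background on 2 of the 3 arrays of B6-ob/ob. Rab3d, a granule GTPase, differed by -0.05, Gjb1 by -0.20, Copz2 by -0.35 and Vamp8 by 0.20. Without B6-ob/ob replicate 5, without NZO replicate 10 or 11, or with slide as a fixed block, 1 of the 8 was called higher. Without NZO replicate 12, or with no filter on dim probes, 2 were. Requiring all 6 arrays above background left 4 of the 8, of which 1 was called, with a median of 0.08. The median was 0.87 without B6-ob/ob replicate 4, 0.33 after normexp correction and 0.30 with the mean of a gene's probes.

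The other secretory products of acinar cells moved as the lipases did. Of 16 listed protease genes 12 were tested and 11 were higher in NZO, with a median of 2.45, beside 2.52 for the lipases and colipase. Try5, a trypsinogen, at 3.17, Ctrb1 at 2.89 and Ctrc at 2.78, both chymotrypsinogens, were the greatest, and trypsinogens have near-identical copies that a probe may share. Cela2a differed by 0.88 (limma adjusted p = 0.175). Of 11 further secretory genes 10 were higher, with a median of 2.72, where 13.2% of all genes were called higher. Pla2g1b, the pancreatic phospholipase A2, stood at 1.04, 1.93 and 1.49 in NZO and at -1.30, -2.42 and -3.07 in B6-ob/ob, a difference of 3.75 (limma adjusted p = 0.00324). The trypsin inhibitor gene Spink1 was higher by 4.81 and Dmbt1, a scavenger receptor protein of secretions, by 3.66. The exception was Amy1, which differed by 1.01 with a limma adjusted p of 0.0501 and no overlap between strains. Among the 12 proteases 6 passed with slide as a fixed block, 6 without B6-ob/ob replicate 5, and 7 without NZO replicate 10 or NZO replicate 12.

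Lipases of other tissues were mostly dim or differed little. Of 6 genes of the same lipase family, Lipc, Lipg, Liph and Lipi were above background on too few arrays to be tested. Lpl, the lipoprotein lipase gene, differed by 0.17, and Pla1a, a phosphatidylserine phospholipase, was higher by 0.93 (limma adjusted p = 0.0056). Of 6 tested genes of other lipid hydrolases 2 were higher and none lower, where 13.2% of all genes were called higher. The median of the 6 was 0.37. The carboxylesterase gene Ces1d was higher by 4.20 and Mgll, which splits monoglycerides, by 0.90. The adipose and lysosomal lipase genes Lipe and Lipa each differed by 0.06. Of these 6 genes 1 passed with slide as a fixed block or without B6-ob/ob replicate 5, and 4 passed with array weights.

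**Figure D4:**
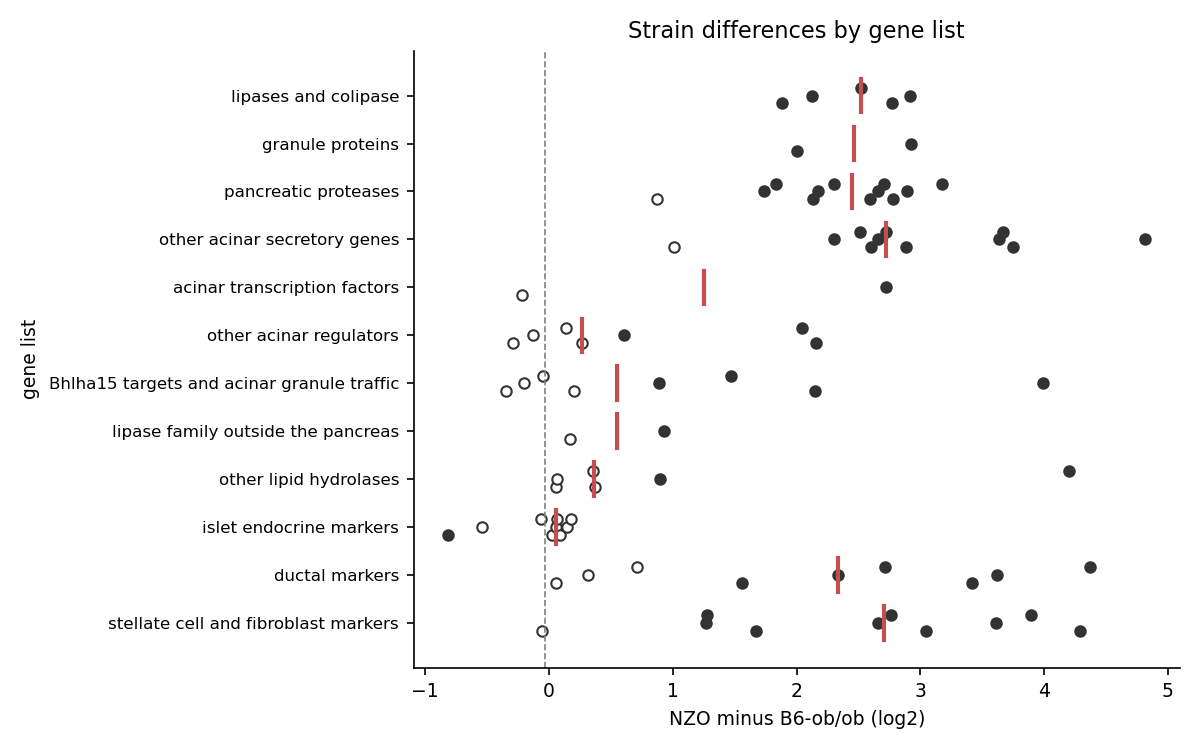
Strain difference, NZO minus B6-ob/ob on the log2 scale, of every tested gene of 12 lists, with filled points for genes that passed at an adjusted p under 0.05. Red bars are list medians and the dashed line is the median of all genes, -0.03, and the medians of the lipase, granule and protease lists lie at 2.52, 2.46 and 2.45.

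Of 9 tested markers of islet endocrine cells 8 did not pass the test, while many markers of ductal and stromal cells were higher in NZO, as the lipases were. Ins1 and Ins2, the insulin genes, differed by 0.07 and 0.06, Gcg by 0.09, Pdx1 by 0.14 and Sst by -0.54, with all NZO arrays below all B6-ob/ob arrays for Sst. Nkx6-1 was lower, at -0.81. Slc2a2, the glucose transporter gene, stood at 3.49, 3.01 and 3.79 in NZO and at 2.19, 3.51 and 4.78 in B6-ob/ob, so that its B6-ob/ob arrays lay on both sides of those of NZO. The summed linear level of the 9 is set mostly by bright genes such as Ins1 and Ins2, and hardly by Nkx6-1 or Slc2a2. It ran from 3581 to 4206 in NZO and from 3473 to 4223 in B6-ob/ob. The summed linear level of the 12 proteases ran from 2452 to 3084 in NZO and from 309 to 980 in B6-ob/ob. Of 10 stellate cell and fibroblast markers 9 were higher, among them Col1a1 at 3.89, Lum at 3.61 and Col3a1 at 3.05, and their sum ran from 65.2 to 75.2 against 14.4 to 27.3. Of 9 ductal markers 6 were higher, with Krt19 at 4.37 and Sox9 at 3.62. Krt7 and Spp1, the brightest of the 9, were not called, at 0.32 and 0.71. The summed level of the 9, set mostly by those brightest genes, ran from 161 to 232 in NZO against 86.8 to 262 in B6-ob/ob. Of the endothelial markers 2 of 6 were higher, of the macrophage markers 3 of 5 and of the lymphocyte markers 1 of 2, and none was lower. The share of all genes called higher was 13.2%, and lists this short say little about a cell type. Muc1, Cftr and Pdgfra, counted above as higher, were not well above background on any B6-ob/ob array. They passed the filter through the NZO arrays alone. The part of acinar, ductal or stromal tissue in the differences of the 9 genes was not tested.

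The bases upstream of the start sites were read for sites of the PTF1 complex, of which Ptf1a is the DNA-binding core. Whether PTF1 has a part in the strain differences was not tested. RefSeq promoter windows on GRCm38.p6 matched 7 of the 9 genes. The 250 bases before each start site were searched on both strands for the E-box CANNTG, bound by helix-loop-helix factors such as Ptf1a and Bhlha15, and for TGGGAA, the core site of RBPJ proteins. An E-box stood in 4 of the 7 windows and in 66.2% of 32841 windows of this length, and TGGGAA in 5 of the 7 and in 21.6%. Both within 30 bases of each other stood in the windows of Cel and Pnliprp1, and in 5.72% of all windows. These windows and that of Bhlha15 are printed over 100 bases each, 5′ to 3′ on the gene's strand, with E-boxes and TGGGAA (or its complement) in capitals.
Cel, chr2:28563427-28563526, minus strand: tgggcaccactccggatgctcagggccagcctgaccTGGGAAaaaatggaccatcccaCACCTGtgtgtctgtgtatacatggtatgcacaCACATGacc
Pnliprp1, chr19:58728763-58728862, plus strand: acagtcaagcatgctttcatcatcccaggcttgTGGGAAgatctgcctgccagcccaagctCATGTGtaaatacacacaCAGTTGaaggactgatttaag
Bhlha15, chr5:144190186-144190285, plus strand: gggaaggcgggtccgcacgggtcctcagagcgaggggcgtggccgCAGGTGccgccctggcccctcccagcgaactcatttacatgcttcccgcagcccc
In the Cel window 16 bases separate TGGGAA from the nearest E-box, and in that of Pnliprp1 22. The windows of Pnlip, Ptf1a and Sycn hold TGGGAA without an E-box, and those of Bhlha15 and Pnliprp2 E-boxes without TGGGAA. These are matches of letters, not measured sites.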

How the data were processed

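Spot intensities, linear and deposited by the authors as scanner output, were background-subtracted and detrended within each array but not normalised between arrays. The file headers name Agilent Feature Extraction 10.5.1.1, and the submitters' processing notes 9.1. Per the labels, each array holds Cy3-labelled cRNA of 1 sample. Control and flagged spots were left out, 61 to 76 flagged spots per array, and no spot was saturated. Probes well above background numbered 23631 to 24726 of 41174 per array, and precision is limited by having 6 arrays. The log2 intensity was averaged over a probe's spots and lowered by the array's 75th percentile. A probe was kept if 3 or more of the 6 arrays had it well above background, which left 24632, and the brightest stood for each gene name. Names came from the files, updated through RefSeq, by accession for 25097 probes and by symbol or synonym for 7971. No value of the 9 genes was missing. The sequence of 1 probe is not reported here.

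The strain comparison was a two-sided limma 3.58.1 fit (lmFit, eBayes; R 4.3.3), and p-values were adjusted by Benjamini-Hochberg over 16421 genes. Alternatives changed the background correction, normalisation, filter, probe summary, slide, array weights, source of values and arrays kept. The functions were tested on simulated data. The 9 genes, the lists and the alternatives were chosen with earlier results of these data known. Named were the 9 genes, up to 3 called genes of each list measured on all arrays without overlap, Ins1, Ins2, Gcg, Sst, Pdx1 and the 5 nearest profiles of Pnlip and of Bhlha15. Some genes that the rule names, mostly markers of other cells, are not printed. Other named genes of the regulator, traffic, protease, secretory, lipid and cell type lists were chosen after their values were seen.

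The authors' deposited value table, of linear intensities, was used only as an alternative. Each of its 6 columns followed a scanner array of the other strain: over probes centred on their mean, r was 0.944 to 0.971 with that array and -0.402 to -0.633 with the array of its own label. Expression of Ifi202b and H2-Ea is known to be lacking in mice of B6 origin, and both genes were above background on 3 of 3 scanner arrays labelled NZO and on 0 of 3 labelled B6-ob/ob. Ifi202b and H2-Ea thus go with the labels of the scanner files rather than with the column labels of the table, which were not checked otherwise. The table is linear and not centred, with column medians from 21.3 to 22.4. Signed values here follow the labels of the scanner files.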

Additional observations from a re-analysis of the deposited data

How the results depend on the processing

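No paired analysis was possible because the strains share no replicate numbers, and arrays of both strains were matched by slide only, through the slide blocks. The direction of all 9 genes held in every alternative on the scanner values, and Pnliprp2, Zg16 and Ptf1a kept their calls wherever they were tested. For Ptf1a these calls rest on B6-ob/ob readings that were not well above background on replicates 4 and 5. The number of members called higher, 8, was 4 with slide as a fixed block, which leaves 2 residual degrees of freedom, and 3 to 8 with an array left out. That block gave 1.82 for Pnlip, 1.44 for Cel, 2.24 for Clps and 1.87 for Sycn, none past the threshold, and Cel at 1.88 missed it with no filter on dim probes (adjusted p = 0.071). With an array left out, differences were 1.69 to 2.53 for Pnlip, 2.27 to 3.27 for Pnliprp1, 1.42 to 2.29 for Cel, 2.11 to 3.04 for Clps and 1.56 to 2.50 for Sycn. The median lipase difference over the mean of the factors, 1.27, was 2.08 after normexp correction. Over all genes, 2165 were called higher and 1479 lower. With array weights 3617 and 3309 were, and with slide as a fixed block 1512 were higher and 812 lower. With an array left out 1298 to 2217 were higher and 635 to 1562 lower. The causes were not tested.

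By its own column labels the authors' value table gave reversed differences: -2.07 for Pnlip, -2.75 for Pnliprp1, -2.92 for Pnliprp2, -1.83 for Cel, -2.48 for Clps, -2.69 for Ptf1a, 0.21 for Bhlha15, -2.90 for Zg16 and -1.85 for Sycn. There 0 members were called higher and 6 lower, and the median lipase difference stood at -1.24 from the mean of the factors. Of all 27827 genes tested on that table, 1496 were called higher and 1852 lower. This is a larger set of genes than in the main comparison, so the adjusted p-values of the 2 are not directly comparable. List medians were -2.45 for proteases, -2.73 for other secretory genes, -0.18 for other regulators, -0.53 for Bhlha15 targets and granule traffic, -0.47 for lipases of other tissues and -0.35 for other lipid hydrolases.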
